A study of Mus musculus with 6 samples.

Results

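Elastic fibre and microfibril genes were followed as a list of 35 gene symbols in cultured cancer-associated fibroblasts, the fibroblasts that grow within a tumour. The symbols were chosen by name, with earlier results of these data known. The files held 34 of the 35 symbols among 48368 in all. Magp1 is an older name of Mfap2, which is itself on the list, so no gene was lost. The cells came from mammary tumours of MMTV-PyMT mice, in which a mammary promoter drives the polyomavirus middle T antigen. RNA was sequenced from 3 libraries of Hic-5-/- mice (KO) and 3 libraries of Hic-5+/- mice (HET). Both groups thus carried the tumour transgene and lacked at least 1 copy of Hic-5, and no wild-type library entered the comparison. The cells were separated from tumour organoids by centrifugation, with no marker-based sort in the protocol, and were grown in serum. The series calls the libraries technical triplicates while titles within a group carry different numbers, and p-values here reflect only how far these libraries spread, which may be technical. The age of the mice was not given in the sources used here.

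Elastic fibres let tissues recoil after stretch. They consist of a core of crosslinked elastin on a scaffold of microfibrils, which are built from fibrillins and carry microfibril-associated glycoproteins (MFAP) and latent TGF-beta binding proteins (LTBP). Fibulins and EMILINs help to deposit elastin on the scaffold, and lysyl oxidases crosslink elastin and collagen. LTBPs hold TGF-beta in a latent form in the matrix, and Hic-5, encoded by Tgfb1i1, is a TGF-beta-inducible adaptor of focal adhesions.

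Totals ran from 24954273 to 42470598 estimated counts per KO library and from 25668423 to 37930851 per HET library. Levels are given as CPM, the count relative to the library total after TMM scaling. At these depths 3 counts, taken as the floor, equal 0.0706 to 0.120 CPM by total, which covers counting error only. Tgfb1i1 stood at 90.4, 0.232 and 156 CPM in KO replicates 1 to 3, against 223, 348 and 125 CPM in HET replicates 1 to 3. Transcript of the targeted gene was thus near the floor in KO replicate 2 alone, and KO replicate 3 lay within the HET range. Gene totals cannot tell transcript of a disrupted allele from intact transcript. A further difference of KO replicate 2 lay in type I collagen. Col1a2, a chain of this collagen, stood at 0.491 CPM there, against 876 and 577 CPM in KO replicates 1 and 3 and 1009 to 5109 CPM in HET. Dcn and Thy1 were also low there, at 0.775 and 0.981 CPM. Col3a1, another collagen gene, was lowest in KO replicate 1, at 9.44 CPM, against 21.8 and 91.3 CPM in KO replicates 2 and 3. Pdgfra and Pdgfrb stood at 124 and 138 CPM in KO replicate 2, against at least 143 and 184 CPM in the other KO libraries. The fibroblast markers of KO replicate 2 summed to 3158 CPM, most of it Vim, against 5483 and 6049 CPM in the other KO libraries and 7567 to 16845 CPM in HET. For these reasons the main results of the members are given with and without KO replicate 2. The 10 epithelial markers summed to 28.3, 88.3 and 28.5 CPM in KO replicates 1 to 3, against 17.9 to 65.8 CPM in HET. Most of this was Krt19 except in KO replicate 2, where Krt18 stood at 37.9 CPM and Krt8 at 13.7 CPM, against at most 2.93 and 2.46 CPM in any other library. The 8 leukocyte markers, most of all Lyz2, summed to 1118 CPM in KO replicate 3 and to 12.5 and 7.49 CPM in KO replicates 1 and 2, against 24.6, 1394 and 39.4 CPM in HET replicates 1 to 3, so they did not follow the genotype label. Ptprc, the leukocyte marker CD45, reached 5.67 CPM in KO replicate 3 and 8.19 CPM in HET replicate 2 and at most 0.0455 CPM elsewhere. The 7 pericyte or smooth muscle markers summed to 123 to 2256 CPM in KO and 1873 to 6802 CPM in HET. Most of this was Acta2, which cultured fibroblasts share, except in KO replicate 2, where Acta2 stood at 45.5 CPM and Mcam at 76.3 CPM. Myh11, of smooth muscle, reached 244 CPM in HET replicate 2 and at most 21.3 CPM in any other library. Endothelial markers summed to at most 13.1 CPM and adipocyte markers to at most 1.21 CPM in any library. The part of these cells in the results below was not tested, and in bulk RNA fewer cells of a type cannot be told apart from less RNA per cell.

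Of the 34 genes, 29 passed the filter on low counts and 5 did not. No member passed edgeR's quasi-likelihood test at an adjusted p under 0.05, where 0.0% of the 17584 tested genes passed, and the smallest adjusted p among members was 0.579. Members with an unadjusted p under 0.05 numbered 4, namely Fbln5, Efemp1, Efemp2 and Emilin2, or 13.8% of those tested, all lower in KO. With any 1 library left out Fbln5 and Emilin2 stayed under 0.05, while Efemp1 and Efemp2 each rose above 0.05 in 4 of the 6 such fits. Over all tested genes 4.29% had an unadjusted p under 0.05 with all libraries in the same direction, and 8.59% in either. DESeq2 placed 3 of them, Emilin2, Efemp1 and Fbln5, past its adjusted threshold as lower in KO, where it placed 1.33% of all genes past it and 0.942% as lower. Limma-voom placed 0 members past it. The KO and HET libraries did not overlap in 7 members, or 24.1%, each with KO below HET, where 7.42% of all genes had KO below HET without overlap and 15.5% did not overlap in either direction. These 7 were Fbln5, Efemp1, Efemp2, Emilin2, Mfap5, Lox and Loxl1. Upper quartile factors or library size alone left 6 of them, without Mfap5. With library size alone 4.85% of all genes had KO below HET without overlap and 12.4% had KO above HET, against 7.42% and 8.1% with TMM.

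The median log2 fold change (KO over HET) of the tested members was -0.74, and that of all tested genes was 0.01. A log2 fold change below 0 was found for 20 members, or 69.0%, and for 49.1% of all tested genes. It was -1 or lower for 11 members, against 8.48% of all tested genes, and 1 or higher for 4, against 6.44%. These shares describe the members that passed the filter, some of them with 0 counts in a library, and are no test of the list. KO replicate 2 was the lowest library for 14 of the 29 members, or 48.3%, while it was the lowest for 23.5% of all tested genes. It was the highest library for 5 members and for 26.3% of all tested genes. HET replicate 1 was the highest library for 11, for which the share over all tested genes was not computed. Without KO replicate 2 the median was -0.65 and 9 members did not overlap, or 31.0%, all with KO below HET, where 10.1% of all genes did so and 20.7% did not overlap in either direction. The 7 named above were among the 9, and the others were Adamtsl4 and Fn1. Without KO replicate 1 the median was -1.45, and without HET replicate 1 it was -0.38.

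**Figure D1:**
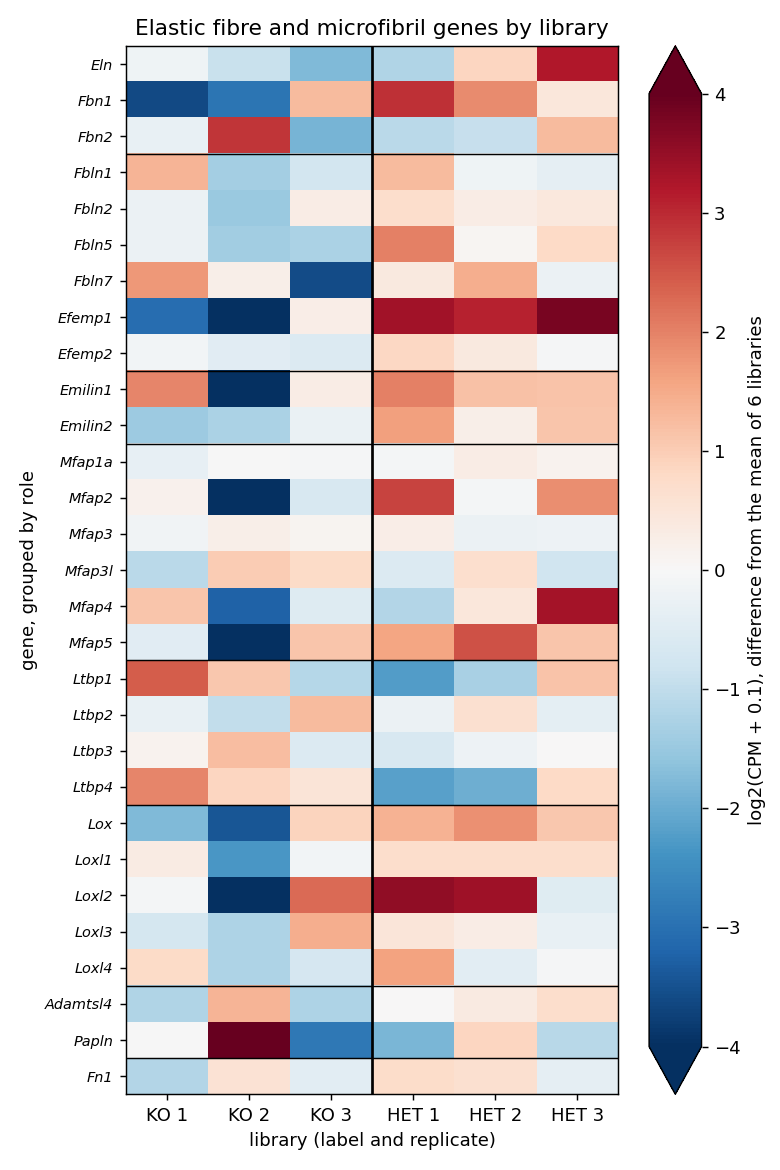
Each row is a tested member, grouped by role, and each column a library, KO on the left and HET on the right; colour gives log2(CPM + 0.1) as the difference from the mean of the 6 libraries. KO replicate 2 was the lowest library for 14 of 29 members, or 48.3%, against 23.5% of all tested genes.

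Elastin itself was close to absent. Eln, the core protein of the fibre, stood at 0.318, 0.155 and 0.0397 CPM in KO replicates 1 to 3, against 0.106, 0.768 and 4.28 CPM in HET replicates 1 to 3. HET replicate 3, with 109 counts, stood above the rest, and the groups overlapped. The log2 fold change was -3.25 ± 1.36 (SE; unadjusted p = 0.0517, adjusted p = 0.583 in edgeR). Without KO replicate 1 it was -4.02, and without KO replicate 2 it was -3.15. In the fits that left out 1 library and still tested the gene it came closest to 0, at -1.30, without HET replicate 3.

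Fbn1, fibrillin 1, the main microfibril protein of adult tissue, was the abundant gene of this group. It stood at 15.5, 25.1 and 458 CPM in KO replicates 1 to 3, against 1446, 705 and 259 CPM in HET replicates 1 to 3. KO replicates 1 and 2 lay far below all others, while KO replicate 3 lay above HET replicate 3, so the groups overlapped. KO over HET in log2 was -2.27 ± 1.39 (adjusted p = 0.631 in edgeR), and leaving out KO replicate 3 gave -5.30, KO replicate 2 -1.78. Fbn2, fibrillin 2, a fibrillin of development, reached 3.62 CPM in KO replicate 2 and at most 1.14 CPM in any other library.

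Of the 6 fibulin genes, 3 did not overlap between KO and HET, and 4 kept a log2 fold change below 0 in every alternative tried. Fbln1 and Fbln7 were also below 0 with all libraries, but Fbln7 lay above 0 when scaled by library size alone and both turned sign when single libraries were left out. Fibulin 5, encoded by Fbln5, binds elastin and links it to cells and to microfibrils. The gene lies on chromosome 12 from 101746565 to 101819055 (GRCm38). It stood at 96.5, 43.4 and 46.9 CPM in KO replicates 1 to 3, against 464, 121 and 198 CPM in HET replicates 1 to 3. Every KO library lay below every HET library, and the fitted fold of HET over KO was 4.19. The log2 fold change was -2.07 ± 0.59, with an adjusted p of 0.579 in edgeR and 0.0480 in DESeq2. Leaving out 1 library at a time gave log2 values from -2.53 to -1.35 and unadjusted edgeR p from 0.00581 to 0.0435.

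Efemp1, fibulin 3, a short fibulin of basement membranes and connective tissue, differed most in size. It lies on chromosome 11 from 28853204 to 28926743. It stood at 5.19, 0.155 and 52.5 CPM in KO replicates 1 to 3, against 447, 370.1 and 617 CPM in HET replicates 1 to 3. The highest KO library, replicate 3, lay far below the lowest HET library. The means were 19.3 ± 28.9 CPM for KO and 478 ± 126 CPM for HET (SD, n = 3 each). In log2 terms KO over HET was -4.63 ± 1.71, with an adjusted p of 0.579 in edgeR and 0.0316 in DESeq2. Leaving out KO replicate 2 gave -4.06 and leaving out KO replicate 3 gave -7.47, and the direction held in each fit with 1 library left out. The unadjusted edgeR p was 0.0329 with all libraries and 0.0105 without KO replicate 2, but 0.0926 without KO replicate 1 and 0.0530 to 0.0638 without any 1 HET library.

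Efemp2, fibulin 4, which brings lysyl oxidase to elastin and is needed for elastic fibres in mice, was the member with the tightest values among these. It lies on chromosome 19 from 5473954 to 5482517. It stood at 264, 208 and 194 CPM in KO replicates 1 to 3, against 503, 372 and 276 CPM in HET replicates 1 to 3. The groups did not overlap, although KO replicate 1 and HET replicate 3 lay close together. The log2 fold change was -0.79 ± 0.29, with an adjusted p of 0.579 in edgeR and 0.306 in DESeq2. Its unadjusted edgeR p of 0.0344 rose above 0.05 when 1 of several libraries was left out. It was 0.0887 without KO replicate 2 (log2 value -0.74), 0.103 without KO replicate 3, 0.108 without HET replicate 1 and 0.0676 without HET replicate 2. A stretch of 173 exon bases is shared with Mus81 on the opposite strand. As the counting was not stated to use strand, reads of both genes may not be told apart there.

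The upstream bases of these 3 fibulin genes are shown because they are the non-overlapping members with both an unadjusted p under 0.05 and an upstream window with at most 1 annotated exon base. The windows are the 250 bases before the start in RefSeq (GRCm38.p6), 5′ to 3′ on the gene's strand, and capitals mark matches to a GC box (GGGCGG) or an AP-1 site (TGANTCA) on either strand. The Fbln5 window is chr12:101819120-101819369 on the minus strand, that of Efemp1 is chr11:28852955-28853204 on the plus strand, and that of Efemp2 is chr19:5473696-5473945 on the plus strand.
Fbln5: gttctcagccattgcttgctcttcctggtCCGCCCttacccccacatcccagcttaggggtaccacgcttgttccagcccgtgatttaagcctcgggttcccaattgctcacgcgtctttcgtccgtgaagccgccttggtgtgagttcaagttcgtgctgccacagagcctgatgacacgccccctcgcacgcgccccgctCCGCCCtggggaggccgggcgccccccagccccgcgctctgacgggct
Efemp1: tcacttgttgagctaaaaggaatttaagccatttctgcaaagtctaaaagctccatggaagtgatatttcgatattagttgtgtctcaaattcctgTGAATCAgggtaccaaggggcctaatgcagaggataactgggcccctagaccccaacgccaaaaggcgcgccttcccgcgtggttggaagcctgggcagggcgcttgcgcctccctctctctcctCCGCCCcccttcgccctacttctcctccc
Efemp2: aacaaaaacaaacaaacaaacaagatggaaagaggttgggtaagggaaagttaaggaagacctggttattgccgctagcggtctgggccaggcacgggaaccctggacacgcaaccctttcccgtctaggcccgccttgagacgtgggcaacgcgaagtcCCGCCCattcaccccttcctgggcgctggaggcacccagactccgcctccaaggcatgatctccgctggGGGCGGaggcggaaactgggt
Fbln5 and Efemp2 held 2 GC boxes each and Efemp1 held 1, and 32.7% of all 32851 windows held at least 1. The AP-1 match of Efemp1 occurs in 6.7% of windows. No match to TATAAA, to the TEAD letters GGAATG or to the CArG box was found in the 3 windows, which 12.4%, 12.6% and 1.5% of all windows held. The SMAD letters CAGAC and the hypoxia response letters ACGTG occurred in Efemp2 alone of the 3, and 42.2% and 16.6% of all windows held them. G and C made up 65.2%, 53.6% and 59.2% of the windows of Fbln5, Efemp1 and Efemp2, and the median window held 52.4%. Of the 23 members with a window, 14 held a GC box, 14 the SMAD letters, 3 the hypoxia response letters, 3 a TEAD match, 2 TATAAA, 1 an AP-1 match and 0 a CArG box. These are matches of letters only and say nothing of binding.

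Fbln2, fibulin 2, which binds fibrillin, fibronectin and basement membrane proteins, was the most abundant fibulin. It stood at 1988, 841 and 2924 CPM in KO replicates 1 to 3, against 3806, 2914 and 3188 CPM in HET replicates 1 to 3. KO replicate 3 lay just above HET replicate 2, so the groups overlapped (log2 fold change -0.78 ± 0.48, adjusted p = 0.633 in edgeR). Leaving out KO replicate 2 gave -0.43, and leaving out KO replicate 3 gave -1.22. Fbln1, fibulin 1, ran from 3.69 to 24.8 CPM in KO and from 7.41 to 23.5 CPM in HET, and Fbln7, a fibulin of placenta and teeth, ran from 0.0793 to 7.14 CPM in KO and from 1.73 to 5.86 CPM in HET. Their log2 fold changes were -0.20 and -0.10.

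**Figure D2:**
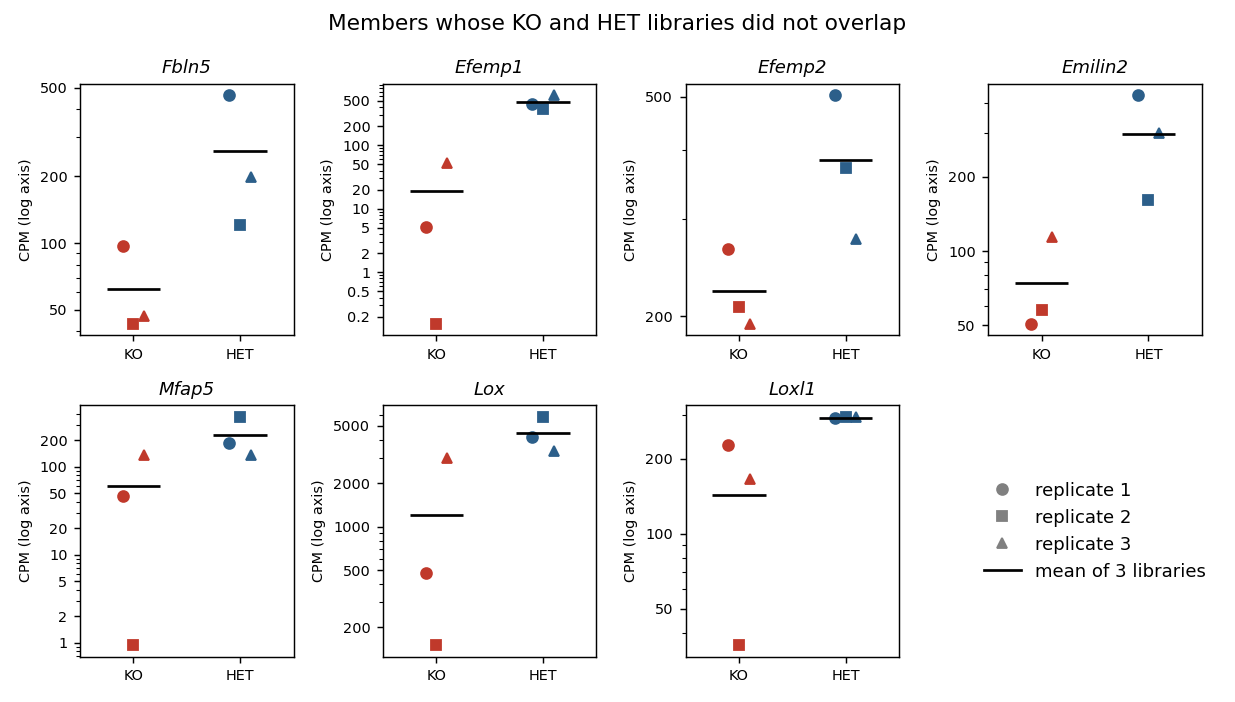
Values in CPM on log axes for the 7 members whose KO libraries all lay below their HET libraries, KO on the left and HET on the right; symbols give the replicate and lines the mean of 3 libraries. The gap is widest for Efemp1, at 52.5 against 370.1 CPM between the nearest libraries, and vanishing for Mfap5, at 135.8 against 135.9 CPM.

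Of the EMILIN and multimerin genes, Emilin1 and Emilin2 were expressed. Emilin2, elastin microfibril interfacer 2, had the smallest unadjusted p of all members. It lies on chromosome 17 from 71252172 to 71311978. It stood at 50.8, 57.5 and 114 CPM in KO replicates 1 to 3, against 429, 161 and 301 CPM in HET replicates 1 to 3. Every KO library lay below every HET library. Its log2 fold change was -2.00 ± 0.49 (unadjusted p = 0.00545, adjusted p = 0.579 in edgeR, adjusted p = 0.0175 in DESeq2). With 1 library left out at a time it ran from -2.44 to -1.63, with unadjusted edgeR p from 0.00295 to 0.0209.

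Emilin1, an elastic fibre protein that also restrains TGF-beta maturation, overlapped between the groups. It stood at 244, 0.568 and 78.0 CPM in KO replicates 1 to 3, against 257, 143 and 140.3 CPM in HET replicates 1 to 3. KO replicate 1 lay within the HET range, and KO replicate 2 was almost without transcript. The log2 fold change was -0.74 ± 1.46, and -0.15 ± 0.57 without KO replicate 2. It was -2.21 without KO replicate 1. The other genes of this group were below the filter. Emilin3 had at most 2 counts in any library, Mmrn2 at most 12 (0.341 CPM, in HET replicate 2), and Mmrn1, a multimerin of platelets and endothelium, 0 in all 6 libraries, where 3 counts would be at most 0.120 CPM.

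Of the 6 MFAP genes, 4 had a log2 fold change below 0 and 1 did not overlap. Mfap5, also called MAGP-2, a microfibril glycoprotein that binds fibrillins, stood at 46.1, 0.930 and 135.8 CPM in KO replicates 1 to 3, against 186, 369 and 135.9 CPM in HET replicates 1 to 3. KO replicate 3 and HET replicate 3 were level, so the absence of overlap is only nominal. Its log2 fold change was -1.92 ± 1.35 (adjusted p = 0.668 in edgeR), and -1.36 ± 0.66 without KO replicate 2. It was -3.29 without KO replicate 3. Mfap2, its paralogue MAGP-1, was far lower in level, at 0 to 1.73 CPM in KO and 1.45 to 10.5 CPM in HET. Mfap4, an elastic fibre protein of vessels and skin, ran from 0 to 1.93 CPM in KO and from 0.319 to 9.41 CPM in HET.

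The other 3 varied less between libraries. Mfap1a, which encodes a nuclear splicing factor despite its name, ran from 49.3 to 60.6 CPM in KO and from 58.4 to 75.8 CPM in HET, a log2 fold change of -0.26 ± 0.19. Its near-identical copy Mfap1b ran from 38.5 to 47.2 CPM in KO and from 48.1 to 60.1 CPM in HET, and counts may be split between the copies. Mfap3 ran from 39.2 to 51.7 CPM in KO and from 37.1 to 52.2 CPM in HET, and Mfap3l from 8.92 to 38.8 CPM in KO and from 10.8 to 29.9 CPM in HET.

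All 4 LTBP genes had log2 fold changes above 0 with all libraries, and none passed a test. The direction of Ltbp2 turned without KO replicate 3. Ltbp3, which carries latent TGF-beta, stood at 149.8, 316 and 92.4 CPM in KO replicates 1 to 3, against 86.4, 117 and 136 CPM in HET replicates 1 to 3. Only KO replicates 1 and 2 lay above the HET range. Its log2 fold change was 0.72 ± 0.47 (adjusted p = 0.649 in edgeR), and 0.10 ± 0.33 without KO replicate 2. Ltbp1 and Ltbp4 are described here because of their size, seen after the fact. Ltbp1, the LTBP most studied in TGF-beta storage, stood at 861, 338 and 72.7 CPM in KO replicates 1 to 3, against 33.9, 64.9 and 350.3 CPM in HET replicates 1 to 3. HET replicate 3 lay at the level of KO replicate 2, and KO replicate 3 near the other HET libraries. Its log2 fold change was 1.5 ± 1.1 (adjusted p = 0.681 in edgeR) and 1.66 ± 1.32 without KO replicate 2. Leaving out KO replicate 1 gave 0.47 and leaving out HET replicate 3 gave 3.11.

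Ltbp4, which helps fibulin 5 to deposit elastin, stood at 24.4, 11.5 and 8.92 CPM in KO replicates 1 to 3, against 1.31, 1.54 and 11.0 CPM in HET replicates 1 to 3. HET replicate 3 alone reached the KO range. On the log2 scale KO over HET was 1.70 ± 0.93 (adjusted p = 0.604 in edgeR), with 1.87 without KO replicate 2 and 3.39 without HET replicate 3. Ltbp2, an LTBP that does not bind latent TGF-beta, ran from 165 to 780.5 CPM in KO and from 248.8 to 511 CPM in HET, with the highest value in KO replicate 3. Its log2 fold change was 0.22 ± 0.63, with 0.58 without KO replicate 2 and -0.69 without KO replicate 3.

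Of the 5 lysyl oxidase genes, Lox and Loxl1 did not overlap between the groups. Lox, the founding lysyl oxidase and the most abundant member per exon length in HET, stood at 476, 149.9 and 3008 CPM in KO replicates 1 to 3, against 4196, 5786 and 3368 CPM in HET replicates 1 to 3. KO replicates 1 and 2 lay far below, and KO replicate 3 only slightly below HET replicate 3. On the log2 scale KO over HET was -1.88 ± 1.04 (adjusted p = 0.608 in edgeR). Leaving out KO replicate 2 gave -1.37 ± 0.82, and leaving out KO replicate 3 gave -3.83.

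Loxl1, a lysyl oxidase of elastic fibre renewal, lies on chromosome 9 from 58287738 to 58313186. It stood at 227, 35.6 and 166 CPM in KO replicates 1 to 3, against 290.4, 295 and 294 CPM in HET replicates 1 to 3. The HET libraries were nearly equal (292.9 ± 2.31 CPM) and the KO libraries spread widely (143 ± 97.7 CPM, SD, n = 3 each). KO over HET came to -1.04 ± 0.61 in log2 (adjusted p = 0.624 in edgeR) and -0.58 ± 0.26 without KO replicate 2. It was -1.55 without KO replicate 1. Loxl2, an oxidase of collagen IV crosslinks, was picked for its spread after its values were seen. It stood at 99.0, 0.155 and 495 CPM in KO replicates 1 to 3, against 1222, 1089.8 and 74.6 CPM in HET replicates 1 to 3, so each group held a library far from the rest. Loxl3 ran from 69.5 to 457 CPM in KO and from 134 to 232 CPM in HET, and Loxl4 from 14.6 to 57.5 CPM in KO and from 25.7 to 104 CPM in HET. Loxl3 shares 535 exon bases with Htra2 on the opposite strand, Loxl2 301 with Gm27177, Fbn1 2442 with Gm9913, Ltbp2 764 with D030025P21Rik and Fn1 292 with Apol7d, and the limit given for Efemp2 holds for these too.

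Of the ADAMTS-like genes and papilin, Adamtsl4, a secreted protein that promotes fibrillin 1 deposition, stood at 8.74, 51.9 and 8.56 CPM in KO replicates 1 to 3, against 20.3, 25.7 and 32.8 CPM in HET replicates 1 to 3. KO replicate 2 lay above all HET libraries and the other KO libraries below them. KO over HET in log2 was -0.19 ± 0.75 over all libraries and -1.60 ± 0.30 without KO replicate 2 (unadjusted p = 0.00242, adjusted p = 0.95 in edgeR). Papln, which encodes papilin, an ADAMTS-related matrix protein, was at 22.1 CPM in KO replicate 2 and at most 1.22 CPM elsewhere. It still passed the filter when that library was left out, with a log2 fold change of -0.73. Adamtsl2, a partner of fibrillin 1 and LTBP1, had at most 8 counts in any library.

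Fn1, fibronectin, whose fibrils guide microfibril assembly, stood at 1263, 4176 and 2104 CPM in KO replicates 1 to 3, against 4672, 4384 and 2207 CPM in HET replicates 1 to 3. KO replicate 2, lowest for so many members, was here close to the highest HET libraries, and KO replicates 1 and 3 lay below the HET range. Its log2 fold change was -0.58 ± 0.54 (adjusted p = 0.738 in edgeR) and -1.17 ± 0.50 without KO replicate 2. Leaving out KO replicate 1 gave -0.26, and leaving out HET replicate 1 gave -0.38. Vtn, the plasma protein vitronectin, had 0 counts in all KO libraries, against 0 to 33 counts (0 to 1.29 CPM) in HET, and was below the filter.

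**Figure D3:**
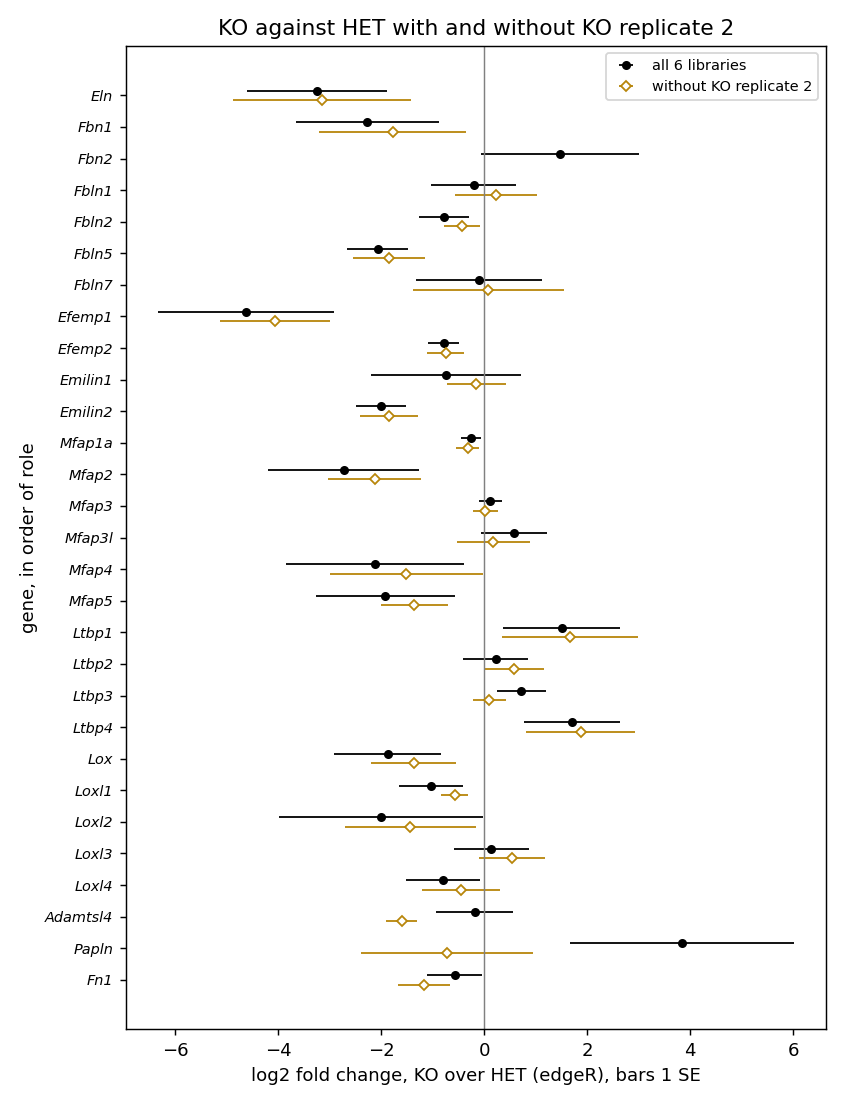
Log2 fold changes of KO over HET from edgeR with bars of 1 SE for the 29 tested members in order of role, with all 6 libraries (filled) and without KO replicate 2 (open). Fbn2 has no second value because it failed the filter there; Adamtsl4 moves to -1.60 and Papln to -0.73 when KO replicate 2 is left out.

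Levels between genes were compared as CPM per kilobase of annotated exon. The deposited RPKM values could not serve for this, since their gene length followed the whole gene span with its introns. For 94.6% of 13510 genes it matched the span within 5% after 1 constant per library, and for 3.5% it matched the exon length. On the exon scale Fbln2, Lox and Fn1 led in KO with 301 ± 164, 254 ± 327 and 215 ± 128 CPM per kilobase, against 518 ± 71.8, 931 ± 257 and 321 ± 115 in HET (SD, n = 3 each). The spreads of the 3 genes overlapped in KO, so their order there is not settled, while in HET every library had Lox above the range of Fbln2 and Fbln2 above that of Fn1. Efemp1 held rank 16 in KO at 9.47 ± 14.2 and rank 4 in HET at 235 ± 61.9 CPM per kilobase. Eln stood at 0.0211 ± 0.0173 in KO and 0.212 ± 0.277 CPM per kilobase in HET, far below Fbn1, Fbln5, Efemp2 and Lox in both groups. This did not hold for every gene of the scaffold or of elastin deposition. In HET the mean of Eln lay within the spread of Ltbp4, at 0.713 ± 0.854 CPM per kilobase. It lay above that of Fbn2, at 0.0366 ± 0.0429 CPM per kilobase. In KO the means of Ltbp4 and Fbn2 lay above that of Eln. The members together summed to 6374, 6688 and 11365 CPM in KO replicates 1 to 3, against 18834, 17821 and 12153 CPM in HET replicates 1 to 3. KO replicate 3 came near HET replicate 3, and the groups did not overlap. In each library the 3 most counted members held 64.5% to 80.1% of that sum.

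**Figure D4:**
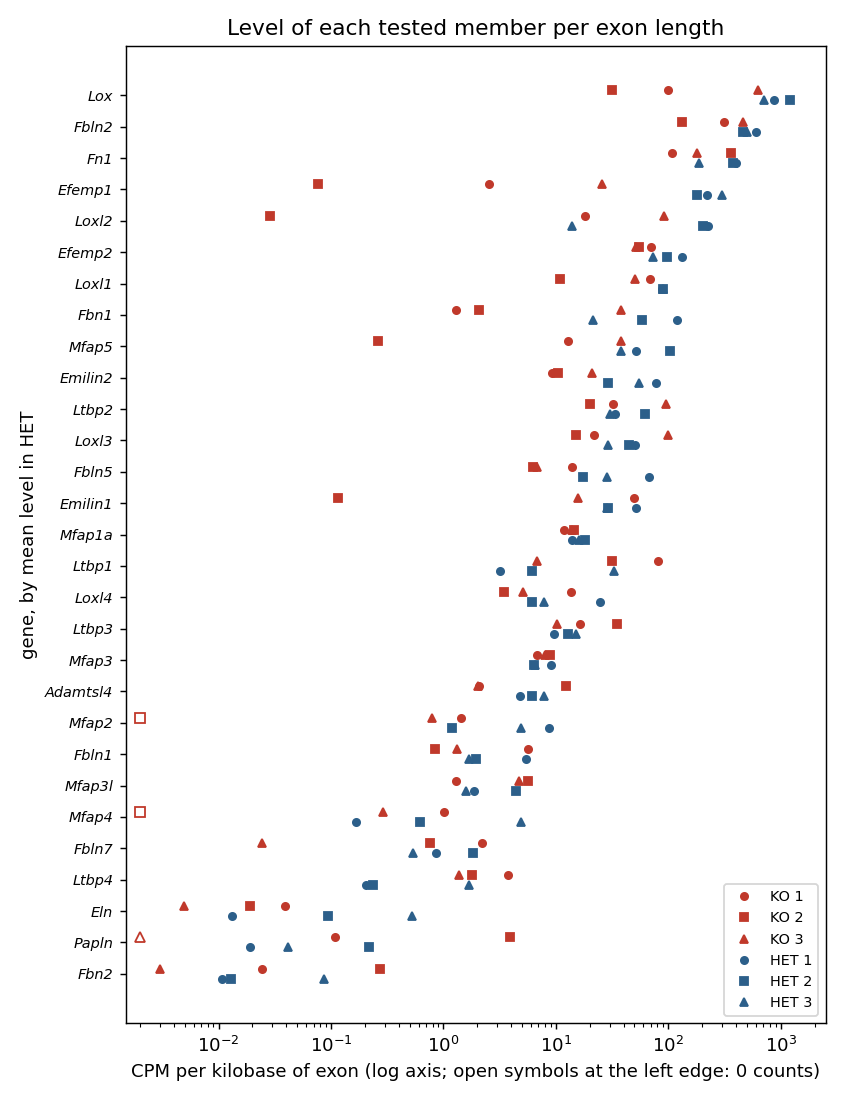
CPM per kilobase of exon on a log axis for the 29 tested members, ordered by their mean in HET, with KO in red above HET in blue and symbols for replicates; open symbols at the left edge are 0 counts. Lox, Fbln2 and Fn1 lead in HET at means of 931, 518 and 321, and Eln, Papln and Fbn2 lie at the bottom.

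KO replicate 3 and HET replicate 3 carry the same number in their titles. Of the 29 members, 23 were lower in that KO library than in that HET library, or 79.3%, while 49.7% of all tested genes were. The libraries nevertheless were level for Mfap5, and KO replicate 3 exceeded HET replicate 3 for Fbn1, at 458 against 259 CPM, and for Loxl2, at 495 against 74.6 CPM. This sets 1 library against 1 and has no test.

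Ratios of related genes within a library do not depend on scaling between libraries. The level of a ratio depends on the gene lengths in the RPKM, but its difference between groups does not, except for Mfap5 to Mfap2. There 0.0001 RPKM was added because Mfap2 had 0 counts in KO replicate 2, and the difference of 1.92 depends on that value: it was 0.47 with 0.5 added to counts and -0.87 with 0.1 RPKM added. For 7 such ratios of RPKM values, exact two-sided permutation tests over libraries gave p from 0.1, the smallest that 3 against 3 allows, to 0.9, and 0.7 or more after adjustment over the 7. The ratio of Efemp2 to Efemp1 was the one at 0.1. Its log2 was 8.89, 13.6 and 5.11 in KO replicates 1 to 3, against 3.39, 3.23 and 2.06 in HET replicates 1 to 3, so the KO libraries all lay above the HET libraries. The log2 ratio of Loxl1 to Lox was -1.96, -2.96 and -5.07 in KO, against -4.74, -5.18 and -4.41 in HET, where KO replicate 3 lay within the HET range (p = 0.3 in the same exact test). The ratio of Fbn2 to Fbn1 gave p = 0.4, and those of Ltbp2 to Ltbp1, Emilin2 to Emilin1, Eln to Fn1 and Mfap5 to Mfap2 gave p = 0.4, 0.9, 0.6 and 0.5 in the same exact permutation test.

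Genes that act on elastic fibres from outside the list were taken as 38 further symbols, of which 37 were in the files and 36 were tested. Of these 22, or 61.1%, had a log2 fold change below 0, against 49.1% of all tested genes, and 14 above. The median of the 36 was -0.28. That median was -0.32 without KO replicate 2, -0.78 without KO replicate 3, -0.57 without KO replicate 1 and -0.18 without HET replicate 1. None passed edgeR's adjusted threshold, 1 had an unadjusted p under 0.05, and 1 passed in DESeq2, in both cases Mmp9, a gelatinase that can cleave elastin. Over all tested genes 8.59% had an unadjusted p under 0.05 in edgeR, and DESeq2 placed 1.33% past its adjusted threshold. Mmp9 stood at 23.4, 3.93 and 2.18 CPM in KO replicates 1 to 3, against 0.354, 0.427 and 0.118 CPM in HET replicates 1 to 3, without overlap, where 8.1% of all tested genes had KO above HET without overlap. Its log2 fold change was 5.01 ± 1.13 (adjusted p = 0.579 in edgeR and 0.000226 in DESeq2), and KO replicate 1 held the highest level. Tll1, a relative of the protease that activates pro-lysyl oxidase, ran from 5.68 to 113 CPM in KO and from 0.815 to 9.22 CPM in HET. Adamtsl1 ran from 2.48 to 7.61 CPM in KO and from 3.19 to 25.4 CPM in HET. Tnxb, tenascin X, which joins collagen and elastic fibres, ran from 0.465 to 11.0 CPM in KO and from 11.9 to 66.2 CPM in HET, without overlap. Such a separation with KO below HET was seen in 7.42% of all tested genes. Tgfb3, a ligand that LTBPs hold, ran from 6.82 to 129 CPM in KO and from 46.3 to 356 CPM in HET. None of these 4 reached an unadjusted p under 0.05.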

How the data were processed

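RNA-seq libraries of cultured fibroblasts were made with a stranded kit after removal of ribosomal RNA, per the labels' protocols. Per the submitters' processing notes, tools were Bowtie2, cutadapt 1.2.1 and Partek, with mm10 and GRCm38 as builds. No source used here gives the annotation, the counting or the use of strand. Deposited by the authors were estimated counts per gene, unscaled, and RPKM values per gene and library. In each file 30 of 48408 rows held values moved by a column and were left out, and 7 repeated symbols were summed.

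Estimated counts were rounded, filtered with filterByExpr, scaled by TMM and tested KO against HET over all genes with edgeR 4.0.16 (quasi-likelihood F test, R 4.3.3, two-sided, Benjamini-Hochberg, threshold 0.05). SE is the absolute log2 fold change over the square root of F. RPKM values entered as ratios within a library with exact permutation tests, for Mfap5 to Mfap2 with 0.0001 added. Positions and exon lengths came from GENCODE M21 (GRCm38), and upstream sequences from RefSeq (GRCm38.p6). The edgeR test was also run on simulated counts with known changes. The outcome is not given here, so the power to find a change in these data is not stated.

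The members, lists and tests were chosen with earlier results of these data known. Values in every library were given for members with an unadjusted p under 0.1, without overlap, or with the highest mean RPKM of their role, 14 in all, and for the 5 further pathway genes of smallest p the text gives ranges or values. That RPKM follows the gene span. Per exon length the highest of their roles would be Ltbp2 in place of Ltbp3 and Emilin2 in place of Emilin1. Groups follow the genotype label; replicate numbers follow accession order. Alternatives were other scalings and filters, DESeq2 1.42.0, limma 3.58.1 (voom, and log2 RPKM with 1 or 0.1 added), leaving out each library or the KO and HET libraries that share a title number, and a term for it. Depth ran from 24954273 to 42470598 counts.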

Additional observations from a re-analysis of the deposited data

How the results depend on the processing

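No paired analysis was possible because KO and HET share only 1 title number; a term for it left 0 genes and 0 members past the adjusted threshold. DESeq2 placed 232 genes, 3 members and 1 other pathway gene past its threshold, where edgeR under each scaling, filter and left-out library, limma-voom and limma on RPKM placed 0. Members at an unadjusted p under 0.05 numbered 4, against 8 with DESeq2, 7 with limma-voom, 7 and 8 on log2 RPKM with 1 and 0.1 added, 8 without the KO and HET libraries that share a title number, 5 with the term for it, and 2 to 8 with 1 library left out (2 without HET replicate 2, 8 without KO replicate 3). The count over all genes moved too. It was 1511 of 17584 in the main fit, 1955 with DESeq2, 1538 with limma-voom, and 1614 and 1661 on log2 RPKM. It was 1545 of 17810 without the libraries that share a title number and 1055 with the term for it. With 1 library left out it ran from 648 of 17863 (without HET replicate 2) to 2281 of 18284 (without KO replicate 3). With 1 library left out the members' median ran from -1.45 (without KO replicate 1) to -0.38 (without HET replicate 1), and on log2(RPKM + 1) it was also -0.38. The median of the other pathway genes ran from -0.84 without the libraries sharing a title number to -0.10 on log2(RPKM + 1), with -0.64 in limma-voom. Library size alone moved the median of all genes to 0.15 and that of the members to -0.62. The cause of these differences was not tested.

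Of the 29 members, 20 kept their direction in every alternative that tested them. With 1 library left out, log2 values ran from -1.48 to 0.52 for Fbln1, -1.45 to 0.52 for Fbln7, -3.75 to 0.14 for Mfap4, -0.69 to 0.62 for Ltbp2, -1.16 to 0.54 for Loxl3, -1.60 to 0.10 for Loxl4, -1.60 to 0.21 for Adamtsl4 and -0.73 to 5.44 for Papln. Without the KO and HET libraries that share a title number, Fbln7 was at 0.14, Mfap3 at -0.0015, Mfap4 at 0.35, Ltbp2 at -0.90, Loxl3 at -1.38 and Adamtsl4 at 0.36. With the term for that number Ltbp2 was at -0.085 and Loxl3 at -0.41. Library size alone put Fbln7 at 0.065 and log2(RPKM + 1) put it at 0.0014. Loxl3 was at -0.30 in limma-voom and at -0.14 and -0.19 on log2 RPKM with 1 and 0.1 added. With 0.1 added to each RPKM, KO minus HET was -0.87 for Mfap5 to Mfap2 and 0.25 for Eln to Fn1. Leaving out 1 library gave -1.53 (without KO replicate 2) to 2.93 for Emilin2 to Emilin1.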
